A study of Mus musculus with 20 samples.

Results

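Transcripts of 10 genes of the activin and TGF-β pathway were examined in murine dendritic cells grown from bone marrow (BMDCs) and exposed to a BET bromodomain inhibitor and to IgG immune complexes. The genes encode ligands or ligand subunits (Inhba, Tgfb1), receptors (Acvr1b, Tgfbr1, Tgfbr2), receptor-activated Smads (Smad2, Smad3) and inhibitors or co-repressors of the pathway (Smad7, Skil, Tgif1). They were found by symbol in the deposited count table and are 10 of the 24421 genes listed there. All 10 were among the 12465 genes that passed the filter on low counts. The genes were chosen from measured values of these same libraries, and which contrast chose them is not recorded. Their values in the 4 groups are therefore given as a description, with the spread between mice and no p-value. Whether a member passed the threshold of the fit over all genes is stated in the same way, and is no independent evidence.

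BMDCs had been grown for 8 days in GM-CSF (40 ng/mL) from bone marrow of wild-type C57BL/6 mice. Cells of each of 5 mice (A to E) received DMSO or I-BET151 (iBET, 3.3 μM), together with ovalbumin (Ova) or ovalbumin bound in IgG immune complexes (IC), for 4 hours. The groups were named DMSO Ova and DMSO IC without the inhibitor, IBET Ova and IBET IC with it, and each had 5 libraries of bulk RNA. DMSO Ova was the common control, and Ova stood in for IC as the stimulus without antibody. The labels describe inhibitor and stimulus as given together, whereas the methods place the inhibitor first. The labels give 5% DMSO for the control cells and state no solvent content for the inhibitor cells. By the methods the inhibitor was dissolved in DMSO and DMSO was its solvent control, so both sets of cells received DMSO. Whether its content was equal is not stated, so a difference in solvent content and the inhibitor cannot be told apart. The study's text pairs the name I-BET151 with a code name otherwise used for a related BET inhibitor, and the name of the labels is kept here. GM-CSF cultures of bone marrow hold macrophage-like cells beside dendritic cells, so each library is a mixed culture, and fewer cells of a type cannot be told apart from less RNA per cell. The 4 libraries of a mouse came from 1 animal, and p-values over mice do not cover repeat cultures of an animal.

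Activins and TGF-β are secreted dimers of one ligand superfamily. Each ligand brings together a type II and a type I receptor kinase. The type I receptor phosphorylates Smad2 and Smad3, which join Smad4 and enter the nucleus. Smad7 blocks the type I receptor, while Skil (SnoN) and Tgif1 repress transcription on Smad-bound DNA. Activin A, a dimer of the product of Inhba, is made by activated monocytes and dendritic cells, and TGF-β1 is best known in these cells for restraining activation and for its part in the induction of regulatory T cells. BET proteins bind acetylated histones and promote transcription of many inducible genes, and I-BET151 prevents that binding.

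Library totals were between 16447491 and 29245150 counts, with a median of 21764663. Values are library-size-normalised counts (CPM) after TMM scaling. The markers of dendritic cells, all 7 of which were detected, summed to between 4360 and 9079 CPM in a library. Those of macrophages and monocytes (6 of 6) summed to between 1856 and 3197 CPM. The largest parts of the dendritic cell sum were Cd74 (1859 to 5368 CPM) and Itgax (1718 to 2725 CPM). Zbtb46 was at 11.9 to 41.8 CPM and Flt3 at only 0.121 to 4.94 CPM. The sums therefore give no shares of cell types. By group, the dendritic cell sums ran from 4360 to 6831 CPM (DMSO Ova), 5039 to 8072 (DMSO IC), 4655 to 7197 (IBET Ova) and 5558 to 9079 (IBET IC). The macrophage and monocyte sums ran from 2330 to 3031 CPM, 2324 to 3197, 1856 to 2590 and 2058 to 2802 in the same order. Stromal and endothelial markers, led by Pecam1, summed to 5.44 to 7.18 CPM, 6.41 to 9.40, 1.71 to 3.25 and 3.06 to 4.29. The summed lymphoid markers reached at most 0.499 CPM, and the collagen genes Col1a1 and Col1a2 at most 0.108 CPM. The 5 neutrophil markers listed summed to at most 45.9 CPM and those of eosinophils, basophils and mast cells to at most 137.9 CPM. With iBET, 2 of the 7 dendritic cell markers passed the threshold in edgeR, Flt3 (log2 fold change -3.66 in Ova and -2.91 in IC) and Ciita (-4.99 and -5.51). The other 5, among them Itgax (0.10 and 0.15) and Cd74 (0.25 and 0.23), did not. Of the 6 macrophage and monocyte markers, Csf1r (-0.83 and -0.68) and Cd14 (-0.78 and -0.60) were lower and the other 4, such as Itgam (0.11 and 0.18), did not pass. Of the remaining lists, Siglecf (-0.48 and -0.51) and Pecam1 (-1.24 and -0.93) were lower in both stimuli and Cdh5 in IC (-2.66), while the neutrophil gene Mpo was higher (3.79 and 4.80) at no more than 0.834 CPM. The part of a shift in cell types in the values that follow was not tested. Libraries of mice A and B stood apart from those of mice C, D and E on the second principal component, between -33.75 and -18.62 against 9.83 to 23.47. The labels name no batch for this. Every value of the 10 genes that passed the threshold below kept its sign in both sets of mice. The sets and the calls were both taken from these libraries, so this is no independent evidence.

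With iBET in Ova, 3 of the 10 genes were higher (Tgfb1, Smad3 and Smad7) and the other 7 were lower, all past an adjusted p of 0.05 in the quasi-likelihood test of edgeR over all genes tested. Over all genes, 27.7% were higher and 28.9% lower by that rule. In IC, the same 3 genes were higher and 5 were lower (Inhba, Tgfbr1, Tgfbr2, Smad2 and Skil), where 27.1% of all genes were higher and 29.0% lower. With IC against Ova, 3 genes were higher (Inhba, Tgfbr2, Tgif1) and 1 was lower (Acvr1b) in DMSO, with 9.59% and 10.7% of all genes in each direction. In iBET, Inhba and Tgif1 were higher and no member was lower, with 5.19% and 6.63% of all genes past the threshold. Scaled by library size only, the calls among all genes with IC went from 1196 higher and 1335 lower to 582 and 2593 in DMSO, and from 647 and 827 to 313 and 2030 in iBET. Inhba and Tgif1 were higher with IC in both treatments under that scaling too, whereas Tgfbr2 was not called and Smad2 (-0.15 in DMSO) and Acvr1b (-0.27 in iBET) were called lower. As these contrasts may have chosen the members, nothing is read from their counts. The plots of single libraries and of fitted differences show every value behind these counts.

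**Figure D1:**
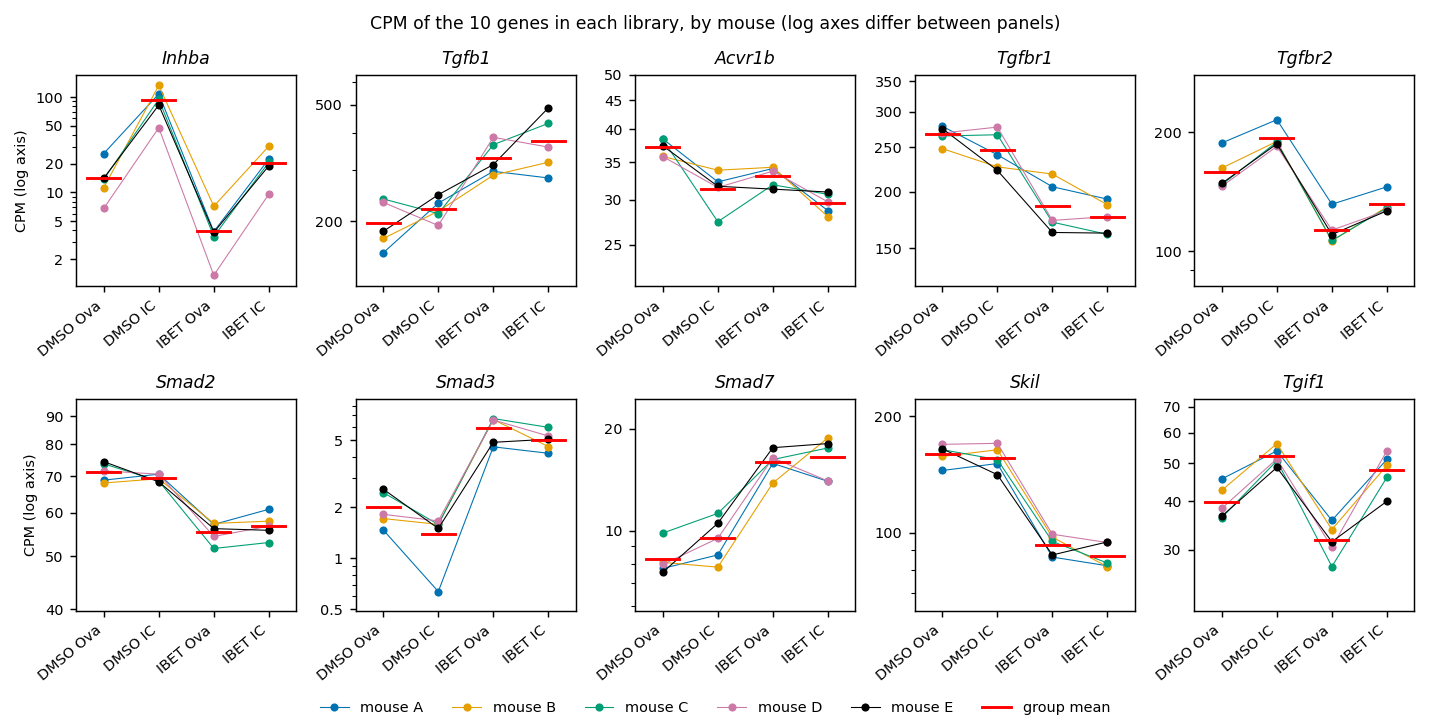
TMM-normalised CPM of the 10 genes in each of the 20 libraries (log axes that differ between panels), with lines joining the 4 libraries of a mouse and red bars at group means of 5 mice. Inhba spans from 1.35 CPM in IBET Ova to 132.6 CPM in DMSO IC, whereas Smad2 stays between 51.6 and 74.4 CPM.

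**Figure D2:**
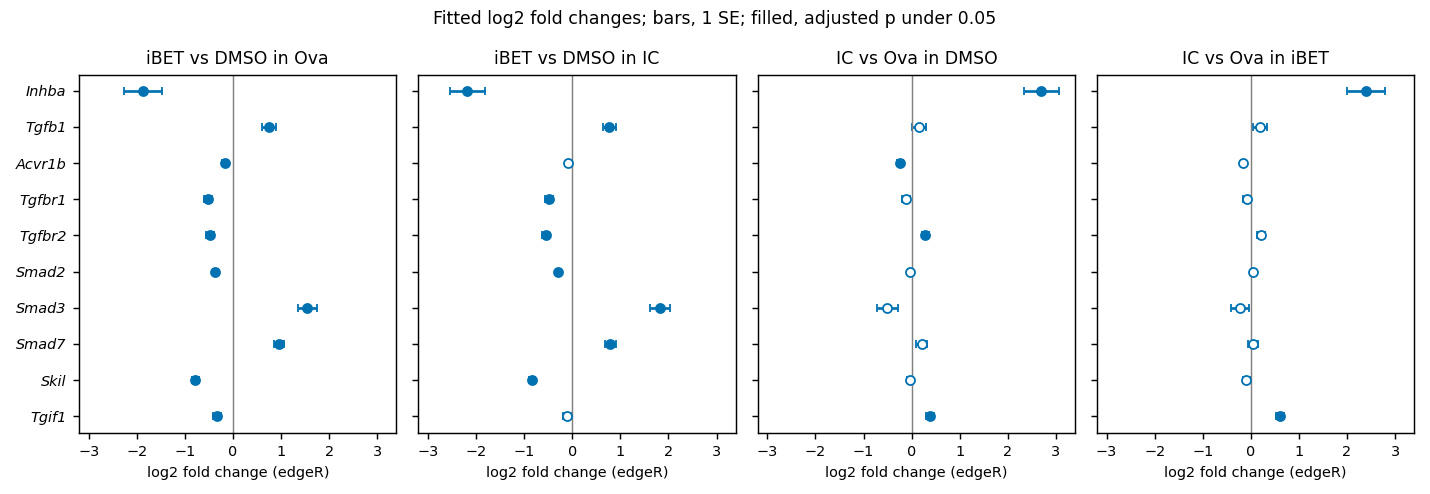
Fitted log2 fold changes of the 10 genes in 4 contrasts, with bars of 1 SE and filled points for adjusted p under 0.05 in edgeR (5 mice per group). Inhba lies at -1.88 and -2.18 for iBET against DMSO and at 2.70 and 2.40 for IC against Ova.

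Inhba encodes the βA subunit of activin A and inhibin A. It lies on chromosome 13 (16011851 to 16031621, plus strand, GRCm38). In DMSO Ova it was at 25.6, 11.2, 13.7, 6.79 and 14.1 CPM in mice A to E. In DMSO IC the values were 108.0, 132.6, 94.9, 47.6 and 82.4 CPM. Every library with IC was above every library with Ova, and the log2 fold change was 2.70 ± 0.37 (SE, n = 5 mice per group), or 6.50-fold. This was rank 3 from the top among the 12465 genes tested.

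In IBET Ova the values of Inhba were 3.88, 7.16, 3.44, 1.35 and 3.81 CPM. In IBET IC they were 22.4, 30.5, 20.7, 9.59 and 19.0 CPM. IC thus went with higher Inhba under the inhibitor too, by 2.40 ± 0.40 on the log2 scale (5.26-fold, higher in 5 of 5 mice), with no overlap between the groups. With the inhibitor, Inhba was 3.67-fold lower in Ova (log2 fold change -1.88 ± 0.40) and 4.54-fold lower in IC (-2.18 ± 0.36). The IC groups did not overlap, and the Ova groups did, through mouse D in DMSO and mouse B in iBET. In each mouse the value with iBET was below that with DMSO. The fall in IC spanned only -2.30 to -2.11 over the 5 mice, and that in Ova spanned -2.69 to -0.64. Libraries given both IC and iBET (9.59 to 30.5 CPM) overlapped those of DMSO Ova (6.79 to 25.6 CPM). Within a mouse, IBET IC was above DMSO Ova in mice B, C, D and E and below it in mouse A (22.4 against 25.6 CPM). This difference was not tested. Mouse D had the lowest Inhba in 4 of 4 groups.

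The fall of Inhba with iBET was not shown to differ between IC and Ova. The difference of the log2 fold changes was -0.31 ± 0.53, and without mouse B it was 0.05. In a fit with the mouse as a block it was -0.29 ± 0.26, also not past the threshold. Fitted on mice A and B alone, Inhba differed between iBET and DMSO by -1.80 in Ova and -2.17 in IC on the log2 scale. In the other 3 mice these values were -1.95 and -2.17.

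The promoter window of Inhba is shown because its transcript had the widest range of the 10. It covers 250 bases before and 50 bases after the start (chr13:16011601-16011900, plus strand, RefSeq, GRCm38.p6), with capitals for a TATAAA match. The window of Smad3 (chr9:63757945-63758244, minus strand) is set beside it because Smad3 had the largest difference in the opposite direction with iBET.
Inhba: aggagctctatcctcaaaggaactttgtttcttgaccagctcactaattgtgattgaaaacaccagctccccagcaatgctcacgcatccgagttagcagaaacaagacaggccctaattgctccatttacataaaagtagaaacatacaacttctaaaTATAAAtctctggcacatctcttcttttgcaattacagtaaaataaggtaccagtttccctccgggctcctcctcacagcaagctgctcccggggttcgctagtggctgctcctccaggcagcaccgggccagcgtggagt
Smad3: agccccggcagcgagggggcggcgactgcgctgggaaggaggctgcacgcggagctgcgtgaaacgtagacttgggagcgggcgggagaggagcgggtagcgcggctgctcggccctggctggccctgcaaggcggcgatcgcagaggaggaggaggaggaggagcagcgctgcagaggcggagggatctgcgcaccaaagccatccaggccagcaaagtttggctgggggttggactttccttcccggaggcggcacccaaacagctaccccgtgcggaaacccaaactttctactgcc

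The TATAAA match lies 91 to 86 bases before the start of Inhba, and 13.6% of the 32851 promoter windows hold these letters on either strand. Windows were also searched on both strands for an AP-1 motif (TGANTCA, in 7.81% of all windows), the cyclic AMP response element (TGACGTCA, 1.79%), a palindromic Smad motif (GTCTAGAC, 0.213%) and the κB motif (4.51%). None of these was found in the 12 windows of the 7 members searched, which were Inhba, Tgfb1, Tgfbr1, Tgfbr2, Smad3, Tgif1 and Acvr1b. No TATAAA was found outside Inhba. The Inhba window had 47.7% G and C, against a median of 52.7% over all windows, and 7 CpG dinucleotides. The Smad3 window had 67.7% and 25 CpG. The windows at the annotated starts of Acvr1b, Tgfb1 and Tgfbr1 were the richest of the members searched, with 79.7%, 77.0% and 74.7%.

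Tgfb1 encodes TGF-β1 and lies on chromosome 7 (25687002 to 25705077, plus strand). In DMSO Ova it was at 156.2, 174.8, 238.6, 232.2 and 184.8 CPM in mice A to E, and in IBET Ova at 296.5, 287.6, 365.6, 387.5 and 312.6 CPM. In DMSO IC its values were 230.8, 216.6, 212.5, 193.6 and 246.6 CPM, and in IBET IC at 281.4, 318.3, 432.4, 358.7 and 488.5 CPM. Every iBET library was above every DMSO library of the same stimulus. The log2 fold change with iBET was 0.74 ± 0.14 in Ova and 0.77 ± 0.14 in IC, which is 1.67-fold and 1.71-fold. IC against Ova gave 0.16 ± 0.14 in DMSO and 0.19 ± 0.14 in iBET, neither past the threshold, with 3 of 5 mice higher in each. Of the pair of ligand genes, Inhba was therefore lower and Tgfb1 higher with iBET, and only Inhba passed the threshold with IC, although this difference between the genes was not tested. With 3 surrogate variables Tgfb1 passed the threshold with IC in DMSO (0.30) and in iBET (0.21).

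Acvr1b encodes ALK4, a type I receptor for activin, on chromosome 15 (101174067 to 101213684, plus strand). In DMSO Ova it was at 38.5, 35.8, 38.4, 35.8 and 37.4 CPM, and in DMSO IC at 32.3, 33.9, 27.4, 31.6 and 31.7 CPM. In IBET Ova it was at 34.1, 34.3, 31.9, 33.7 and 31.3 CPM, and in IBET IC at 28.7, 28.0, 30.7, 29.8 and 31.0 CPM. These were small differences of groups that lay close together. It fell by 0.24 ± 0.06 on the log2 scale with IC in DMSO, and by 0.17 ± 0.06 with iBET in Ova. The first call was lost without mouse C (-0.18) and within mice A and B (-0.18). The second was lost without mouse C (-0.13) or mouse E (-0.15), within mice A and B (-0.13), within mice C to E (-0.15) and with no filter on low counts (-0.15). In IC the log2 fold change with iBET was -0.08 ± 0.06, not past the threshold. With IC in iBET it was -0.16 ± 0.06, not past the threshold, although the groups did not overlap. It passed with the mouse as a block in edgeR and DESeq2 (-0.16 in each) and when scaled by library size only (-0.27).

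Tgfbr1 and Tgfbr2 encode the type I and type II receptors of TGF-β. Tgfbr1 is on chromosome 4 (47353222 to 47414931, plus strand) and Tgfbr2 on chromosome 9 (116084293 to 116175360, minus strand). Tgfbr1 was at 278.4, 248.6, 265.0, 269.0 and 275.1 CPM in DMSO Ova and at 204.9, 218.5, 171.2, 172.7 and 162.5 CPM in IBET Ova. With IC it was at 241.0, 226.6, 266.7, 277.2 and 222.6 CPM in DMSO and, in IBET IC, at 192.4, 187.0, 160.9, 176.1 and 161.9 CPM. The DMSO and iBET groups did not overlap in either stimulus. Tgfbr1 fell by 0.52 ± 0.09 in Ova and by 0.49 ± 0.09 in IC on the log2 scale, in 5 of 5 mice each. Its differences with IC, -0.11 ± 0.08 in DMSO and -0.08 ± 0.08 in iBET, were not past the threshold.

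Tgfbr2 was at 187.8, 162.3, 147.4, 146.0 and 148.5 CPM in DMSO Ova and at 131.6, 106.3, 106.6, 113.2 and 110.3 CPM in IBET Ova. With IC it was at 215.0, 189.5, 188.9, 184.1 and 186.8 CPM in DMSO and, in IBET IC, at 145.5, 129.6, 128.7, 126.9 and 126.6 CPM. Mouse A had the highest value in 4 of 4 groups, and no iBET library reached a DMSO library of the same stimulus. With iBET the log2 fold change was -0.48 ± 0.08 in Ova and -0.55 ± 0.08 in IC. With IC in DMSO it was 0.28 ± 0.08, higher in 5 of 5 mice, with groups that overlapped through mouse A in DMSO Ova. That call was lost without mouse C, D or E, each at 0.27, within mice A and B (0.20), in a fit of the 10 compared libraries alone (0.28), and when scaled by library size only (0.18). In iBET the difference with IC was 0.21 ± 0.08, also higher in 5 of 5 mice. It was not past the threshold, and passed it with the mouse as a block (0.21), with surrogate variables (0.18), without mouse A (0.23) and within mice C to E (0.21).

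Smad2 and Smad3 carry the signal of both ligands. Smad2, on chromosome 18 (76241580 to 76310963, plus strand), was at 68.8, 68.0, 73.7, 71.5 and 74.4 CPM in DMSO Ova and at 57.1, 57.4, 51.6, 54.3 and 56.1 CPM in IBET Ova. The values in DMSO IC were 70.6, 69.2, 68.6, 70.6 and 68.3 CPM, and in IBET IC at 60.9, 57.9, 52.9, 56.7 and 55.7 CPM. Groups with and without iBET did not overlap. The log2 fold change was -0.37 ± 0.05 in Ova and -0.29 ± 0.05 in IC, and the call in IC was lost within mice A and B (-0.22). With IC it was -0.04 ± 0.05 in DMSO and 0.04 ± 0.05 in iBET, neither past the threshold, and the latter was -0.07 when scaled by library size only.

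Smad3, on chromosome 9 (63646767 to 63757994, minus strand), was the scarcest of the 10 in DMSO, with 12 to 52 counts in a DMSO library and 91 to 146 in an iBET library. In DMSO Ova it was at 1.47, 1.72, 2.45, 1.82 and 2.56 CPM, and in IBET Ova at 4.56, 6.61, 6.71, 6.57 and 4.85 CPM. In DMSO IC it was at 0.636, 1.59, 1.59, 1.67 and 1.50 CPM, and in IBET IC at 4.18, 4.58, 5.95, 5.29 and 5.06 CPM. Every iBET library was above every DMSO library. Smad3 was 2.92-fold higher with iBET in Ova (log2 fold change 1.55 ± 0.20) and 3.55-fold higher in IC (1.83 ± 0.21). Smad2 and Smad3 thus differed in direction with iBET, a pattern for which they may have been chosen. With IC in DMSO, Smad3 was lower in 5 of 5 mice (-0.50 ± 0.22), which passed the threshold only in the fits with the mouse as a block (-0.51 in edgeR and in DESeq2). In iBET the difference with IC was -0.23 ± 0.19, not past the threshold.

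Smad7 encodes the inhibitory Smad and is itself a known target of Smad3. It lies on chromosome 18 (75367529 to 75395935, plus strand). In DMSO Ova it was at 7.74, 8.06, 9.84, 7.95 and 7.54 CPM, and in IBET Ova at 15.8, 13.8, 16.2, 16.4 and 17.6 CPM. In DMSO IC it was at 8.48, 7.81, 11.2, 9.49 and 10.5 CPM, and in IBET IC at 14.0, 18.8, 17.5, 14.0 and 18.1 CPM. All 10 iBET libraries were above all 10 DMSO libraries. The log2 fold change with iBET was 0.96 ± 0.11 in Ova (1.94-fold) and 0.79 ± 0.11 in IC (1.73-fold). With IC it was 0.21 ± 0.11 in DMSO and 0.04 ± 0.11 in iBET, neither past the threshold, and the latter was -0.06 when scaled by library size only.

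Skil encodes SnoN, a co-repressor that binds Smads and whose gene TGF-β signalling induces. It lies on chromosome 3 (31095058 to 31122577, plus strand). Skil was at 144.8, 157.5, 164.0, 169.2 and 164.8 CPM in DMSO Ova and at 86.5, 97.4, 94.9, 99.1 and 87.6 CPM in IBET Ova. In DMSO IC it was at 150.9, 163.8, 154.5, 170.3 and 141.3 CPM, and in IBET IC at 82.1, 81.6, 83.5, 94.3 and 94.7 CPM. All 10 iBET libraries lay below all 10 DMSO libraries. The log2 fold change was -0.78 ± 0.07 in Ova and -0.84 ± 0.07 in IC, the largest fall of the members after Inhba in both. With IC it was -0.04 ± 0.07 in DMSO and -0.09 ± 0.07 in iBET, neither past the threshold.

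Tgif1 encodes a homeodomain co-repressor and lies on chromosome 17 (70844205 to 70853546, minus strand). It was at 45.6, 42.7, 36.3, 38.3 and 36.6 CPM in DMSO Ova and at 53.9, 56.2, 50.8, 51.4 and 48.8 CPM in DMSO IC. In IBET Ova it was at 35.7, 33.8, 27.2, 30.4 and 31.5 CPM, and in IBET IC at 51.3, 49.4, 46.1, 53.9 and 40.0 CPM. IC libraries were above Ova libraries in both treatments without overlap. The log2 fold change with IC was 0.39 ± 0.09 in DMSO and 0.60 ± 0.09 in iBET. With iBET, Tgif1 fell by 0.33 ± 0.09 in Ova, without overlap, and its difference in IC was -0.12 ± 0.09, not past the threshold. Tgif1 and Inhba were the members past the threshold with IC in both treatments. The call in DMSO was lost within mice A and B (0.31).

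No difference between the effect of iBET in IC and in Ova passed the threshold in any of the 10 genes, where 0.0401% of all genes tested (5 genes) did. None of the 10 had an unadjusted p under 0.05 in edgeR, and neither DESeq2 nor the fit with the mouse as a block called any of them. The estimates ran from -0.31 ± 0.53 for Inhba to 0.28 ± 0.29 for Smad3. Groups did not overlap for 9 of the 10 genes with iBET in Ova (38.0% of all genes tested), for 8 in IC (42.8%), and for 3 with IC in each of DMSO (12.4%) and iBET (10.0%).

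Levels were compared between genes as CPM per kilobase of annotated exon. Tgfbr1 (40.9 ± 1.78, SD, n = 5) and Tgfb1 (39.1 ± 7.20) were the most abundant in DMSO Ova, and their ranges overlapped. Tgfbr2 (19.4 ± 2.16), Skil (16.5 ± 0.979), Acvr1b (8.41 ± 0.298), Smad2 (8.12 ± 0.324) and Tgif1 (7.10 ± 0.726) followed. In that order, Acvr1b overlapped Smad2 and Smad2 overlapped Tgif1, and the other neighbours did not overlap. Inhba (2.23 ± 1.09), Smad7 (1.82 ± 0.205) and Smad3 (0.362 ± 0.0861) were the lowest, with overlap between Inhba and Smad7. In DMSO IC, Inhba stood at 14.6 ± 4.93 CPM per kilobase, between Skil and Tgif1 and overlapping both. In IBET Ova, Inhba was the lowest at 0.615 ± 0.326, overlapping Smad3 at 1.06 ± 0.191. Tgfb1 was the most abundant of the 10 in IBET Ova (65.4 ± 8.76) and in IBET IC (74.5 ± 16.7), and in both its libraries lay above those of Tgfbr1. The per-length plot shows the 10 genes in this order. No exon of the 10 shares bases with an exon of another gene in GENCODE M21.

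**Figure D3:**
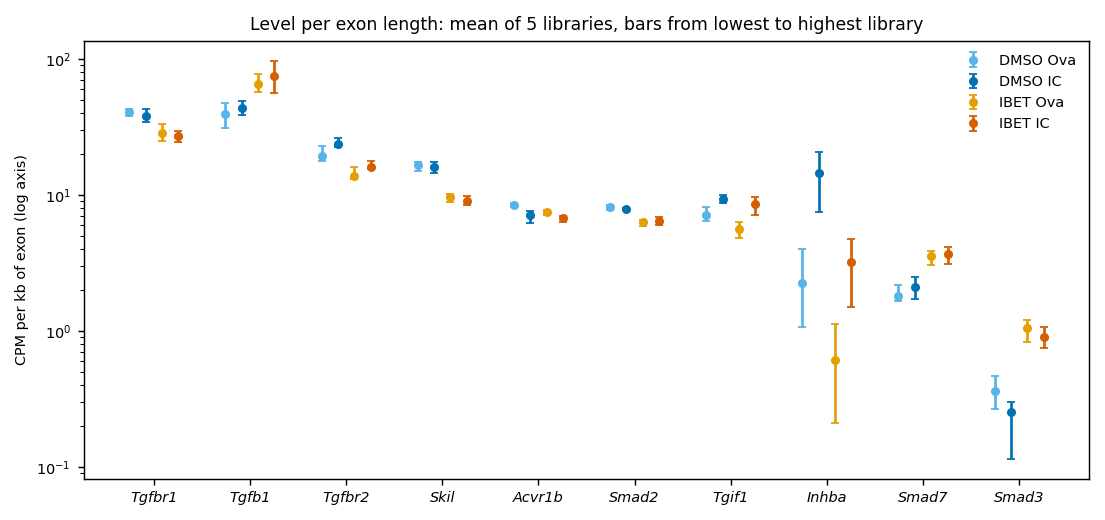
Level of the 10 genes per kilobase of annotated exon (CPM per kb, log axis), as the mean of 5 libraries with bars from the lowest to the highest library, for the 4 groups and ordered by DMSO Ova. Inhba moves from 2.23 in DMSO Ova to 14.6 in DMSO IC and 0.615 in IBET Ova, while Smad2 stays between 6.30 and 8.12.

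The other genes of the pathway were taken from 6 lists by role, 83 genes in all, of which 63 passed the filter. With iBET in Ova 14 were higher and 19 lower, and in IC 13 were higher and 19 lower, all at an adjusted p under 0.05 in edgeR. Together these were 52.4% and 50.8% of the 63. Over all genes tested, 27.7% were higher and 28.9% lower in Ova, and 27.1% and 29.0% in IC. With IC 6 were higher and 2 lower in DMSO (12.7% together), and 6 were higher and 3 lower in iBET (14.3%). Over all genes the shares with IC were 9.59% and 10.7% in DMSO, and 5.19% and 6.63% in iBET. With the mouse as a block the counts with IC became 11 and 7 in DMSO and 13 and 6 in iBET, beside 4755 and 3601 calls over all genes. The medians of the log2 fold changes of the 63 genes with iBET were -0.06 in Ova and -0.11 in IC, beside 0.00 and -0.01 over all genes. The same shares of all genes stand beside the counts of each list below, and nothing is read from those counts. The scatter plot of both iBET contrasts sets these genes beside the 10.

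**Figure D4:**
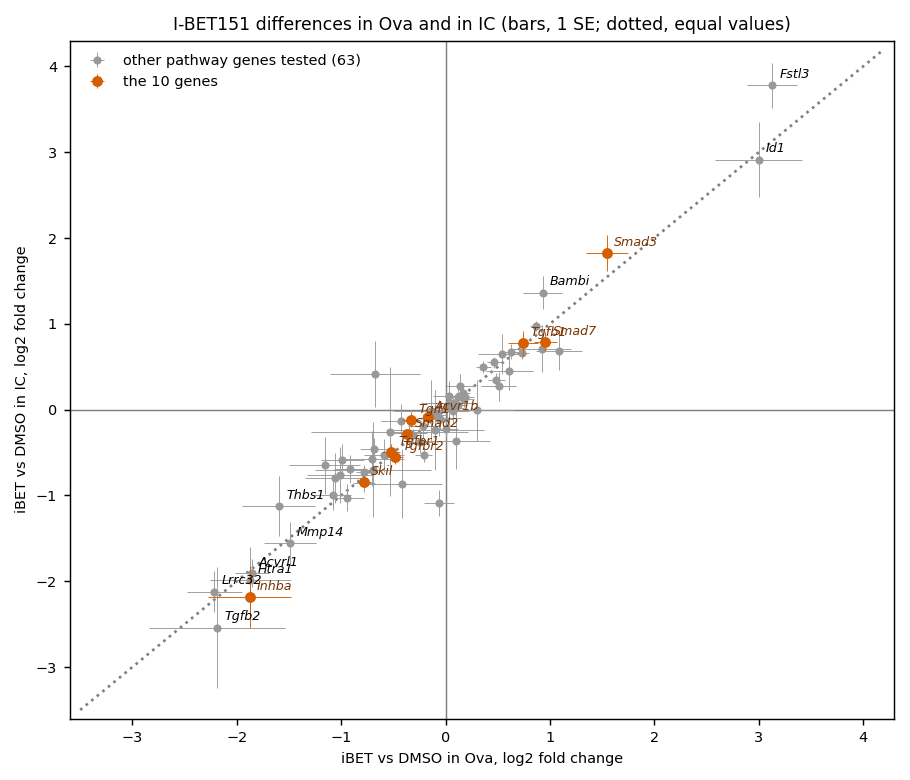
Log2 fold change with iBET in Ova (horizontal axis) and in IC (vertical axis) for the 10 genes (orange) and the 63 other pathway genes tested (grey), with bars of 1 SE and a dotted line of equal values. The compared libraries are not shared between the axes, and Fstl3 at 3.13 and 3.78 lies farthest from 0 on both.

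Among other ligand genes, 3 of 12 passed the filter. Gdf15, a stress-induced ligand of the superfamily, was at 6.65 ± 1.98 CPM (SD, n = 5) in DMSO Ova, 19.2 ± 2.88 in DMSO IC, 3.31 ± 0.630 in IBET Ova and 12.8 ± 3.21 in IBET IC. Like Inhba, it was higher with IC in DMSO (log2 fold change 1.54 ± 0.19, adjusted p = 1.79e-05 in edgeR) and in iBET (1.94 ± 0.20, adjusted p = 2.79e-06), and lower with iBET (-0.99 in Ova and -0.58 in IC). Tgfb2, which encodes TGF-β2, was at or below 0.981 CPM in every library and fell with iBET (-2.19 ± 0.65, adjusted p = 0.00744 in edgeR, and -2.54 ± 0.70, adjusted p = 0.00446). Gdf9 was at most 0.724 CPM and was higher with iBET (0.93 and 0.71).

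Of 12 tested genes for ligand latency, activation and traps, 2 were higher and 7 lower with iBET in Ova, and 2 were higher and 6 lower in IC. Fstl3, a follistatin-like protein that binds and neutralises activins, was higher by 3.13 ± 0.24 in Ova (adjusted p = 1.57e-09 in edgeR) and by 3.78 ± 0.26 in IC (adjusted p = 3.34e-10). Its level was low, at most 0.474 CPM in DMSO libraries and between 2.33 and 3.78 CPM in iBET libraries, which did not overlap. Inhba was thus lower and Fstl3 higher in the same libraries. Fst, which encodes follistatin and is on the same list, went the other way from Fstl3. It was at 5.37 ± 2.46 CPM in DMSO Ova and 2.68 ± 0.741 in IBET Ova (-1.01 ± 0.33, past the threshold). In IC it was at 4.50 ± 1.57 CPM in DMSO and 2.61 ± 1.03 in iBET (-0.76 ± 0.33), past the threshold with the mouse as a block but not in the main fit. Fst was lower with iBET in 5 of 5 mice in each stimulus, although the groups overlapped. Lrrc32 encodes GARP, which holds latent TGF-β at the cell surface. It was at 6.76 ± 1.67 CPM in DMSO Ova, 17.3 ± 5.30 in DMSO IC, 1.44 ± 0.460 in IBET Ova and 4.01 ± 1.06 in IBET IC. The log2 fold change of Lrrc32 with iBET was -2.21 in Ova and -2.12 in IC, and it was higher with IC by 1.35 and 1.45. Furin, the convertase that cleaves the precursors of activin and TGF-β, was higher with IC in DMSO by 1.03 ± 0.08 (adjusted p = 5.28e-08 in edgeR) and in iBET by 0.72 ± 0.08. It was lower with iBET by -0.21 in Ova and -0.52 in IC. Htra1, which encodes a secreted serine protease, fell with iBET (-1.87 and -1.98). Its level was low, at 3.44 ± 1.38 CPM in DMSO Ova, 0.952 ± 0.495 in IBET Ova, 3.61 ± 1.94 in DMSO IC and 0.911 ± 0.428 in IBET IC.

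Of 10 other receptor and co-receptor genes tested, 3 were higher and 3 lower with iBET in each stimulus. Acvrl1 (ALK1), a type I receptor, went from 45.4 ± 8.09 CPM in DMSO Ova to 12.5 ± 2.30 in IBET Ova (-1.86 ± 0.16, adjusted p = 1.03e-08 in edgeR), and from 46.1 ± 10.1 to 12.3 ± 2.11 in IC (-1.91 ± 0.16). The co-receptor genes Eng (-0.91 and -0.69) and Nrp1 (-0.78 and -0.85) also fell. Bambi, a pseudoreceptor that lacks a kinase, was higher by 0.93 and 1.36. Its level was low, at 1.95 ± 0.487 CPM in DMSO Ova, 3.73 ± 0.689 in IBET Ova, 1.68 ± 0.459 in DMSO IC and 4.29 ± 0.466 in IBET IC. Acvr2a, also on this list, was at 10.7 ± 1.10 CPM in DMSO Ova and 16.5 ± 2.17 in IBET Ova. In IC its values were 9.41 ± 0.518 CPM in DMSO and 15.0 ± 1.12 in iBET, and libraries with and without iBET did not overlap in either stimulus. With IC against Ova, edgeR called none of these receptor genes in DMSO or iBET. None of them had an unadjusted p under 0.05, and neither DESeq2 nor the block called any.

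Of 7 other Smad and Smad partner genes tested, Trim33, which encodes a ubiquitin ligase that binds Smad2 and Smad3, was the only one past the threshold with iBET (0.46 ± 0.06 in Ova, adjusted p = 3.68e-06 in edgeR, and 0.55 ± 0.06 in IC, adjusted p = 3.67e-07). DESeq2 gave the same count of 1 in each. With the mouse as a block, Smad5 (0.17) and Zfyve9 (-0.75) also passed in Ova. None of the 7 passed it with IC in either treatment, also at an unadjusted p under 0.05 and in DESeq2.

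Of 14 inhibitor and turnover genes, 4 were higher and 2 lower with iBET in Ova, and 4 were higher and 3 lower in IC. With the mouse as a block, 6 were higher and 5 lower in Ova. Smurf2, whose product ubiquitinates receptors and Smads together with Smad7, was higher by 0.87 ± 0.06 and 0.98 ± 0.06 (adjusted p = 1.71e-10 and 3.25e-11 in edgeR). Ski is the close relative of Skil, which fell with iBET. It was at 190.1 ± 11.5 CPM in DMSO Ova and 316.3 ± 14.1 in IBET Ova, and at 158.8 ± 12.3 in DMSO IC and 250.3 ± 15.3 in IBET IC. Its log2 fold change with iBET was 0.73 and 0.66, and with IC -0.26 in DMSO and -0.34 in iBET. Smad6, the other inhibitory Smad, fell with iBET (-1.06 in Ova, adjusted p = 0.00314 in edgeR, and -0.80 in IC, adjusted p = 0.0242), where Smad7 was higher. Smad6 was scarce, at 1.99 ± 0.619 CPM in DMSO Ova and 0.947 ± 0.294 in IBET Ova. In IC it was at 1.42 ± 0.437 CPM in DMSO and 0.794 ± 0.266 in iBET, and the groups overlapped in both stimuli. Ldlrad4, a membrane protein that holds Smad2 and Smad3 from the receptor, fell with iBET (-1.08 and -0.99). Smurf1 was higher with IC in DMSO (0.47, adjusted p = 0.0135 in edgeR).

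Of 17 tested genes known as transcriptional targets, 3 were higher and 5 lower with iBET in Ova, and 2 were higher and 5 lower in IC. Id1 was at 3.46 ± 1.57 CPM in DMSO Ova and 27.8 ± 11.0 in IBET Ova, and at 2.22 ± 0.937 in DMSO IC and 16.7 ± 7.53 in IBET IC (log2 fold change 3.00 ± 0.42 and 2.92 ± 0.43). Id3 was higher by 1.09 and 0.68 at a low level, 0.690 ± 0.138 CPM in DMSO Ova and 1.47 ± 0.363 in IBET Ova. In IC it was at 0.721 ± 0.212 CPM in DMSO and 1.16 ± 0.178 in iBET, with groups that overlapped. Id2, of the same family of helix-loop-helix inhibitors, fell with iBET (-0.94 and -1.02) and was higher with IC by 0.66 and 0.57. Klf10, a TGF-β inducible early gene, was at 106.2 ± 17.2 CPM in DMSO Ova and 49.7 ± 4.16 in DMSO IC, and at 101.5 ± 21.2 in IBET Ova and 23.3 ± 4.53 in IBET IC. It fell with IC in both treatments (-1.10 and -2.12) and with iBET in IC (-1.09). Runx3 fell with iBET in Ova (-1.16, adjusted p = 0.00682 in edgeR), from 54.1 ± 21.9 CPM to 24.3 ± 8.53. In IC it was at 47.3 ± 9.03 CPM in DMSO and 30.3 ± 15.3 in iBET, and the groups overlapped in both stimuli. The lists hold targets of both the activin and TGF-β branch and the BMP branch, and Id1 and Id3 are best known as targets of BMP signalling. The difference between the effects of iBET in IC and in Ova passed the threshold in none of the 63 genes in edgeR. At an unadjusted p under 0.05 there were 2, DESeq2 called 1, and with the mouse as a block Klf10 alone was called.

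The 5 tested genes whose log2 CPM followed Inhba most closely over the 20 libraries were Mdm2 (r = 0.986), Il1a (0.978), Ccl3 (0.960), Slc7a11 (0.954) and Bhlhe41 (0.953). These are correlations over libraries that share groups, mice and scaling, and are given with no test. Mdm2 encodes the ubiquitin ligase of p53, Il1a and Ccl3 encode a cytokine and a chemokine, and Slc7a11 encodes a subunit of the cystine transporter. Il1a had means of 22.7 ± 4.51 CPM in DMSO Ova, 61.2 ± 15.6 in DMSO IC, 10.1 ± 3.01 in IBET Ova and 31.5 ± 6.58 in IBET IC. When each library was centred on its group mean, the 5 closest genes were others, namely Serpinb2 (0.924), Clec5a (0.921), Car4 (0.920), Cdh1 (0.914) and Cxcl2 (0.914). Among the first 5, the centred values ran from 0.650 for Bhlhe41 to 0.906 for Mdm2.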

How the data were processed

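RNA-seq libraries of BMDCs were made from 20 samples. The labels mention a sort into lysis buffer with no gate named, whereas the methods describe lysis of cultured cells. As the methods and labels state, the authors trimmed reads with Trim Galore, used HISAT2 for alignment to mm10 and featureCounts for counting per gene; versions, annotation and strand setting are not given in the sources used here. The deposited table holds raw counts per gene and library. A second deposited table holds signal values, which are those counts divided by DESeq2's size factor of each library (largest relative difference 4.4e-16), and it served as an alternative.

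The filter on low counts was filterByExpr, the scaling TMM, and the main test edgeR's quasi-likelihood F-test (version 4.0.16, R 4.3.3). The 4 groups were the only factor in 1 fit of 20 libraries, p-values were adjusted by Benjamini-Hochberg over 12465 genes, and the threshold was 0.05. The methods name DESeq2 and sva, with no design given. Log2 CPM used a prior count of 2. The members, the gene lists and the alternatives were chosen with earlier results of these data known. Other pathway genes were named by size: up to 3 past the threshold per list in each iBET contrast and up to 2 in each IC contrast. Fst, Acvr2a, Smad5 and Zfyve9 were named outside that rule. Numbers of mice pair libraries of the same animal, and such libraries deviated together from their group means (r between 0.307 and 0.675 over 30 pairs). Replicates differed by more than counting error (chi-square per degree of freedom at least 12.5), so errors are SD between mice or the SE of the main fit. That fit leaves out the mouse, so its SE includes differences in level between mice and is not the spread of paired differences. For Inhba with iBET in IC, the SE with the mouse as a block was 0.16. Positions and exon lengths came from GENCODE M21 and promoter windows from RefSeq. Alternatives were the mouse as a block, DESeq2 1.42.0 with and without it, other scalings, no filter, 3 surrogate variables of sva 3.50.0, the 10 compared libraries only, each mouse left out, each set of mice, limma 3.58.1 on the scaled values (pseudocount 1), and a log2 fold change of at least 1.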

Additional observations from a re-analysis of the deposited data

Results flagged for a closer look

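In 5 of the 40 groups of 5 values that the 10 genes give, 1 library lay far from the other 4 by Dixon's test, where chance gives about 1 in 20. That rate holds for independent groups, whereas the groups of a gene share the same mice, as with Tgfbr2 in mouse A. For Tgfbr2, mouse A was high in DMSO IC (215.0 CPM, others 184.1 to 189.5), in IBET Ova (131.6 CPM, others 106.3 to 113.2) and in IBET IC (145.5 CPM, others 126.6 to 129.6). For Smad3, mouse A was low in DMSO IC (0.636 CPM, others 1.50 to 1.67). For Smad7, mouse C was high in DMSO Ova (9.84 CPM, others 7.54 to 8.06).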

How the results depend on the processing

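Of 790 values of the 10 genes under alternatives, 736 moved by less than 1 SE, none that passed the threshold changed sign, and 28 changed side of it (13 gained, 15 lost). Counts are given for all genes, then the 10, then the other pathway genes. With the mouse as a replicate block, IC against Ova gave 4755 genes and 18 other pathway genes in DMSO, and 3601, 4 and 19 in iBET, and the interaction 102 and 1. The block changed no call of the 10 beyond Smad3, Tgfbr2 and Acvr1b above. DESeq2 with the block gave 4611 and 19 in DMSO, 3600, 4 and 18 in iBET, and 185 and 1 for the interaction, and without it 24 and 1 for the interaction. Surrogate variables gave 4062 and 15, then 3102, 4 and 15, then 47 and 1. Mice A and B only gave 500 and 1 of the 10 in DMSO, 296 in iBET and 0 for the interaction, and mice C, D and E only gave 14 other pathway genes in DMSO, and 13 and 1 for the interaction. Requiring a log2 fold change of 1 or more in size left 1865, 2 and 13 with iBET in Ova, 1867, 2 and 11 in IC, 184, 1 and 4 with IC in DMSO, 101, 1 and 3 in iBET, and 3 for the interaction. Scaled by library size only, the median of all genes with IC moved by -0.11 in both treatments, and 2343 genes were called in iBET. Leaving out 1 mouse gave with IC in DMSO 1180 to 2477 genes, 2 to 4 of the 10 and 5 to 10 others, in iBET 643 to 1177, 2 to 3 and 5 to 8, and for the interaction 0 to 2. The causes were not tested. Low counts limit Smad3, with 12 to 52 in DMSO libraries.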
